A study of Mus musculus with 14 samples.

Results

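Solute carriers are membrane proteins that move sugars, amino acids, nucleosides, metals, inorganic ions and metabolic intermediates across the plasma membrane and the membranes of mitochondria, lysosomes, Golgi and endoplasmic reticulum. The genes described here are all those whose symbol in the deposited expression table begins with Slc and a digit, which gave 160 genes of 10106, in 41 numbered families. They were sorted by family number into 12 groups by cargo or membrane: 36 mitochondrial carriers, 22 metal carriers, 20 carriers of ions, phosphate and acid equivalents, 19 amino acid carriers, 19 of the Slc35 family, 11 of lysosomes and vesicles, 8 of vitamins and choline, 7 of sugars, 6 of monocarboxylates, 6 of fatty acids, bile acids, dicarboxylates and urea, 4 of nucleosides and 2 of organic ions. The symbol alone chose them, so some are not carriers by function. Among these are 3 with a suffix after the carrier name: Slc4a1ap encodes kanadaptin, Slc7a6os lies on the strand opposite Slc7a6, and Slc9a3r1 encodes the scaffold protein NHERF1. The family number likewise set the groups, so a group's name does not hold for every member.

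The RNA came from OT-I CD8+ T cells of mouse spleen, which carry a transgenic receptor for the ovalbumin peptide SIINFEKL, with an age of 8 to 12 weeks in the labels. They were transferred on day 0 into C57BL/6 (C57BL6j) recipients, which kept their own CD45.2+ cells, and recovered from spleen on day 4 by magnetic depletion and sorting on CD3e, CD8 and CD45.1. On day 1 recipients were injected intravenously with 223 pmol of TER119-SIINFEKL (peptide targeted to erythrocytes, 3 libraries), free SIINFEKL peptide (2 libraries), ERY1-OVA (ovalbumin targeted to erythrocytes, 3 libraries) or soluble OVA protein (3 libraries); Naive recipients (3 libraries) received saline and are the study's resting control. All 5 groups therefore share the transferred OT-I cells and the transfer itself. The design asks how antigen bound to erythrocytes and soluble antigen change gene expression in these cells.

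When a CD8+ T cell is activated it grows and divides, and its demand for glucose, amino acids, nucleobases and mitochondrial exchange of metabolites rises. In this setting Slc2a1 and Slc2a3 bring in glucose, the Slc7a5 and Slc3a2 pair forms the large neutral amino acid transporter, Slc1a5 carries glutamine, Slc16a1 exports lactate, and Slc25 proteins of the mitochondrial inner membrane exchange nucleotides, phosphate, aspartate and carboxylates with the cytosol.

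Levels are given as RPKM, reads scaled to gene length in kilobases and to the reads of the library, from the deposited log2 values. Differences are log2 fold changes with their standard error (SE) from one limma fit to all 14 libraries; a gene was called where the two-sided Benjamini-Hochberg adjusted p over all 9793 tested genes was under 0.05. Of the 160 members, 157 had a mean of at least 1 RPKM and were tested; Slc16a3, Slc29a2 and Slc37a2 were not. The median member averaged 6.77 RPKM; 65 averaged at least 10 RPKM and 5 at least 100 RPKM, led by Slc25a5 at 610.8 and Slc25a3 at 273.8.

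Some facts of the libraries touch all that follows. The summed RPKM of the 5 CD8 T cell markers was 1779 to 2422 in TER119-SIINFEKL, 2624 to 2649 in SIINFEKL, 2143 to 2317 in ERY1-OVA, 1920 to 2231 in OVA and 2631 to 3028 in Naive libraries, so all groups but SIINFEKL lay below Naive without overlap; Cd4 did not exceed 1.31 RPKM. Of B cell markers 2 of 5 were in the table (Cd79b and Cd22), at summed RPKM of 23.8 to 27.5 in TER119-SIINFEKL, 12.8 to 21.5 in SIINFEKL, 17.6 to 22.5 in ERY1-OVA, 15.1 to 21.8 in OVA and 8.49 to 10.3 in Naive libraries. The 2 did not move alike. Cd22 was at 0.317 to 0.435 RPKM in Naive libraries and at least 3.57 in every antigen library. Cd79b was at 8.12 to 9.96 RPKM in Naive libraries, and SIINFEKL (from 9.21) and OVA (from 8.09) overlapped that range. The 3 dendritic cell markers in the table reached 51.4 in an OVA library, the 2 erythroid ones 20.3 in a TER119-SIINFEKL library, and none of 3 neutrophil markers was in the table. Of 6 endothelial and stromal markers only Pecam1 was in the table, at 33.6 to 42.8 RPKM in TER119-SIINFEKL, 48.2 to 65.7 in SIINFEKL, 37.6 to 41 in ERY1-OVA, 20.9 to 27.1 in OVA and 27.7 to 32.9 in Naive libraries. The part of these markers in the results was not tested. The 2 SIINFEKL libraries were further apart than replicates of any other group, with a within-group SD over the members of 0.429 on the log2 scale, against 0.193 to 0.229 in the other 4 groups. Deviations of a library from its group mean went with gene length to differing degrees, with a Spearman rho over genes between -0.47 (OVA replicate 1) and 0.49 (TER119-SIINFEKL replicate 2). Cells were pooled in each library, so fewer cells expressing a carrier and less RNA per cell cannot be told apart.

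Promoters are printed for 5 members that changed in the same direction in the TER119-SIINFEKL, ERY1-OVA and OVA groups: 3 that were higher there than in Naive (Slc25a13, Slc35b2 and Slc31a1) and 2 that were lower (Slc12a7 and Slc25a23). The windows run from 250 bases before to 50 bases after the RefSeq start on GRCm38.p6, read 5′ to 3′ on the gene's strand. Capitals mark matches to an E-box (CACGTG, the site of MYC, MAX and USF proteins) or to an E2F site (GGCGGGAA); both strands were searched, and an amino acid response element (TGATGCAAT) was searched with no match. Among the windows at hand of members higher in those 3 groups, only the 3 printed ones hold a match. The printed windows are therefore not typical of the members that rose.
Slc25a13 (chr6:6217124-6217423, minus strand): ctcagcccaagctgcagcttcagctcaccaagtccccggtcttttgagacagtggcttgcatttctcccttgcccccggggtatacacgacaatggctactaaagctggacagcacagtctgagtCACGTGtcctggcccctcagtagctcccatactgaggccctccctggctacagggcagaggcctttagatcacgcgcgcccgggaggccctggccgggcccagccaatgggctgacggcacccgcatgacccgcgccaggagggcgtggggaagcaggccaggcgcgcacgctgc
Slc35b2 (chr17:45563686-45563985, plus strand): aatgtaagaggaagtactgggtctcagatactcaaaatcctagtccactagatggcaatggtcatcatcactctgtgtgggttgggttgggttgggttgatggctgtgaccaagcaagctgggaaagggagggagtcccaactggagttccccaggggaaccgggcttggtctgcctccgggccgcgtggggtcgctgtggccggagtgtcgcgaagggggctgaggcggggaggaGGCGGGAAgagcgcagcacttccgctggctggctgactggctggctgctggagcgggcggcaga
Slc31a1 (chr4:62360451-62360750, plus strand): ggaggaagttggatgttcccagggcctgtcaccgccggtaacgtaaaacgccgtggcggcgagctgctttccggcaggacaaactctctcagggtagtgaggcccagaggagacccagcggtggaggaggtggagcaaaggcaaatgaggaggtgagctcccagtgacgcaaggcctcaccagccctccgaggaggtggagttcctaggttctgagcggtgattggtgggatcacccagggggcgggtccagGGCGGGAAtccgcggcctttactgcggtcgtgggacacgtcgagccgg
Slc12a7 (chr13:73763410-73763709, plus strand): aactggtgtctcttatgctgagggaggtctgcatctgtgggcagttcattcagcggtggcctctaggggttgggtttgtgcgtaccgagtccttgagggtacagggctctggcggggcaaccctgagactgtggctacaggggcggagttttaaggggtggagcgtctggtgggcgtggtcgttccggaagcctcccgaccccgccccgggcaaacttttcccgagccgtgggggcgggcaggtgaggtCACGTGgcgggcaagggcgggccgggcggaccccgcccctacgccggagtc
Slc25a23 (chr17:57059814-57060113, minus strand): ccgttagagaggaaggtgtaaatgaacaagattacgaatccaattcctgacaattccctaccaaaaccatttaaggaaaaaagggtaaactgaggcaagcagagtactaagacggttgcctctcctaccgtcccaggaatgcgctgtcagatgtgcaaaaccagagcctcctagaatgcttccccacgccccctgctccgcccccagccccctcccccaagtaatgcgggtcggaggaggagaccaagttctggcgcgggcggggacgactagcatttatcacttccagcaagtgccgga

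The RefSeq table held 119 of the 160 members. The E-box letters stood in 19 of those 119 windows (16%), against 7.15% of 32851 windows in the table; they stood in 1 of 9 windows of members higher in those 3 antigen groups and in 5 of 20 of members lower in them. The E2F letters stood in 8 of 119 (6.72%), against 2.19% of the table, in 2 of the same 9 and in 0 of the same 20. The response element letters stood in 0 of 119 windows and in 0.192% of the table. The Slc12a7 window lies at the RefSeq start, inside the gene as GENCODE bounds it. The members have a single window per gene. The windows of the whole table were not limited to a single window per gene or to genes with expression values, so the shares compare unlike sets. A match is only a run of letters.

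Compared with Naive, more members were lower than higher in the TER119-SIINFEKL, ERY1-OVA and OVA groups, whereas calls over all genes were nearly even. In TER119-SIINFEKL libraries 22 members rose and 46 fell, 43.3% of the 157, beside 47.6% of all genes tested (24.6% higher and 23% lower). In ERY1-OVA libraries 13 rose and 37 fell, 31.8%, beside 39.9% of all genes (20.9% higher and 19% lower). In OVA libraries 19 rose and 51 fell, 44.6%, beside 47.6% of all genes (24.4% higher and 23.1% lower). The share of members called was thus near or below the background in all 3, and the share of calls that were rises was 32.4%, 26% and 27.1% in that order, against 51.7%, 52.4% and 51.3% over all genes.

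In SIINFEKL libraries 12 members rose and 15 fell, 17.2%, beside 15.9% of all genes (7.58% higher and 8.34% lower), which is close to the background. That count rests on the libraries that entered: it was far lower without SIINFEKL replicate 1 and far higher without SIINFEKL replicate 2. Each of these fits leaves 1 library in the group. The median log2 fold change of the members was -0.13 in TER119-SIINFEKL, 0.03 in SIINFEKL, -0.12 in ERY1-OVA and -0.19 in OVA, beside medians of -0.00, -0.01, -0.01 and -0.04 over all genes. With the trend of each library with gene length removed, the members' medians were -0.06, 0.04, -0.07 and -0.11; their median exon length was 4807 bases, beside 4434 bases for all genes. The 4 comparisons share the Naive libraries, so likeness between them is not independent. Over them, 64 members were called in none (40.8%, beside 38% of all genes), 4 were higher in all 4 antigen groups (Slc43a3, Slc25a13, Slc4a8 and Slc25a24; 2.55%, beside 3.86%) and 8 were lower in all 4 (5.1%, beside 3.39%; Slc25a23, Slc16a10, Slc27a4, Slc39a11, Slc39a14, Slc30a4, Slc3a2 and Slc25a51). Fewer members were higher or lower in all 4 without SIINFEKL replicate 1, and more without SIINFEKL replicate 2. The same held over all genes, and each of these fits leaves 1 SIINFEKL library.

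**Figure D1:**
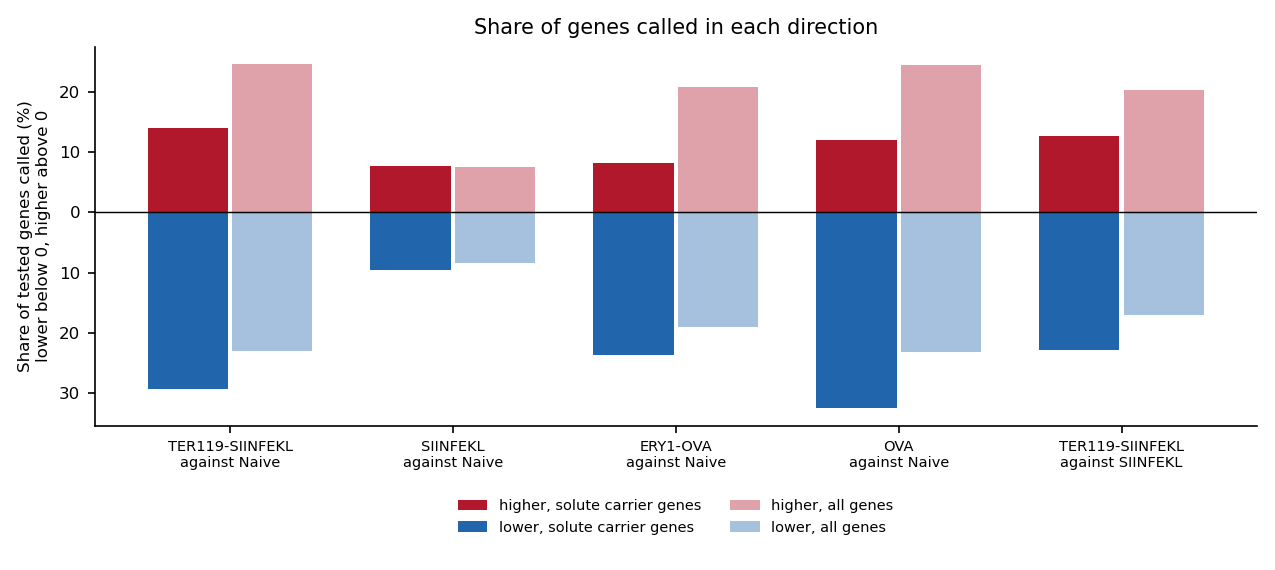
Share of tested genes called higher (above 0) or lower (below 0) in 5 comparisons, for the 157 solute carrier genes (full colour) and all 9793 genes (pale). In the 3 comparisons of TER119-SIINFEKL, ERY1-OVA and OVA with Naive, the carriers' lower share exceeds their higher share, whereas the pale bars are nearly symmetrical.

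**Figure D2:**
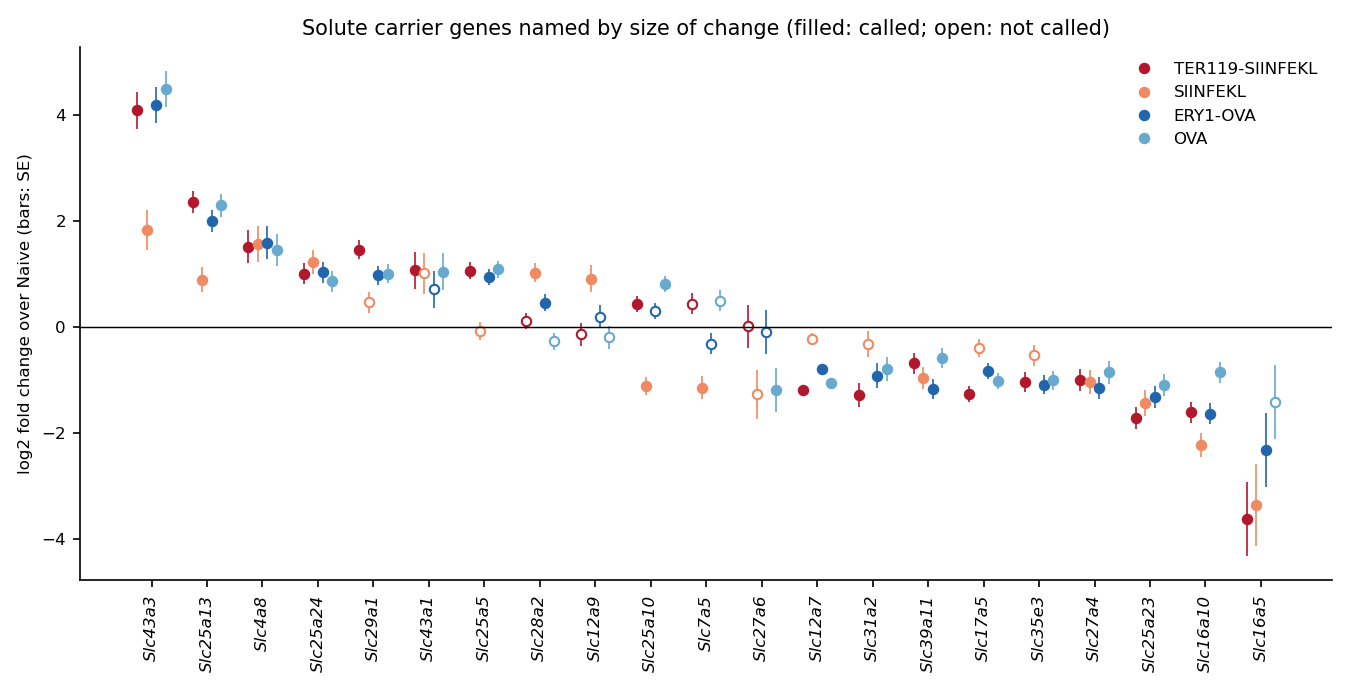
Log2 fold change over Naive (points, with SE bars) of the members with the largest changes in any of the 4 antigen groups; filled points were called and open points were not. Slc43a3 stands highest at 1.83 to 4.48 and Slc16a5 lowest, down to -3.62 in TER119-SIINFEKL.

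Among amino acid carriers the largest change of any member was that of Slc43a3 (chr2:84936579-84958509, GRCm38, plus strand), which belongs to a family of amino acid carriers but is known to transport purine nucleobases. Slc43a3 was at 7.04, 11.4 and 10.7 RPKM in TER119-SIINFEKL, 3.81 and 1.05 in SIINFEKL, 11.2, 8.70 and 11.2 in ERY1-OVA, 11.7, 12.2 and 14.1 in OVA, and 0.555, 0.507 and 0.637 in Naive libraries. All 11 antigen libraries were above all Naive libraries, with the second SIINFEKL library nearest to them. The log2 fold change over Naive was 4.08 ± 0.34 in TER119-SIINFEKL (adjusted p = 1.4e-06), 1.83 ± 0.38 in SIINFEKL (0.0074), 4.19 ± 0.34 in ERY1-OVA (1.4e-06) and 4.48 ± 0.34 in OVA (5.3e-07). Without SIINFEKL replicate 1 the SIINFEKL change was 0.90 and no longer called (adjusted p = 0.086); it was 2.76 without replicate 2. Slc43a1, a carrier of large neutral amino acids on the same chromosome, rose by 1.07 ± 0.35 in TER119-SIINFEKL and 1.04 ± 0.35 in OVA; the TER119-SIINFEKL call was lost without TER119-SIINFEKL replicate 2 or 3 or Naive replicate 1.

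The plasma membrane carriers Slc7a5 and Slc1a5 and the partner chain Slc3a2 were called higher in no group in the fit to all libraries. Slc7a5, the transporting chain of the large neutral amino acid transporter, was at 18.5, 30.3 and 29.2 RPKM in TER119-SIINFEKL, 6.94 and 10.2 in SIINFEKL, 14.9, 14.7 and 15.4 in ERY1-OVA, 21.1, 29.8 and 29.1 in OVA and 16.4, 19.4 and 20.6 in Naive libraries. Both SIINFEKL libraries and all ERY1-OVA libraries lay below the Naive range, and all OVA libraries lay above it. In that fit only the SIINFEKL fall passed the test (-1.15 ± 0.22, adjusted p = 0.0045; -0.87 and adjusted p = 0.086 without SIINFEKL replicate 1); the OVA difference was 0.49 ± 0.20 (adjusted p = 0.054), and was called with the SIINFEKL group left out of the fit (0.49 ± 0.18, adjusted p = 0.037). Its partner chain Slc3a2 fell in all 4 groups, by 0.41 ± 0.13 in TER119-SIINFEKL, 0.70 ± 0.15 in SIINFEKL, 0.74 ± 0.13 in ERY1-OVA and 0.40 ± 0.13 in OVA on the log2 scale, and its libraries did not overlap with Naive, where it was at 44.1 to 45.4 RPKM. The glutamine carrier Slc1a5 was not called, with log2 fold changes of 0.42, 0.59, 0.25 and 0.12 in TER119-SIINFEKL, SIINFEKL, ERY1-OVA and OVA and 95% intervals reaching from -0.29 in OVA to 1.05 in SIINFEKL. Of the 19 members of amino acid families, 2 rose and 5 fell in TER119-SIINFEKL, 1 and 2 in SIINFEKL, 1 and 2 in ERY1-OVA, and 3 and 5 in OVA. The all-gene shares were 24.6% and 23%, 7.58% and 8.34%, 20.9% and 19%, and 24.4% and 23.1% in the same order. The rises among the 19 were those of Slc43a3 in all 4 groups, Slc43a1 in TER119-SIINFEKL and OVA, and Slc7a6os, which is not a carrier, in OVA. The members that fell in TER119-SIINFEKL included the lysosomal carrier Slc36a1 (-0.99 ± 0.19) and the neutral amino acid carrier Slc6a19 (-1.12 ± 0.36).

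Glucose carriers were not called. Slc2a1 (GLUT1) was at 14.8, 16.1 and 15.6 RPKM in TER119-SIINFEKL, 17.3 and 18 in SIINFEKL, 15.9, 13.4 and 19.8 in ERY1-OVA, 18.7, 19.7 and 18.9 in OVA and 16.2, 19.3 and 19.4 in Naive libraries. The 95% intervals of its log2 fold change over Naive were -0.52 to 0.04 in TER119-SIINFEKL, -0.36 to 0.26 in SIINFEKL, -0.45 to 0.10 in ERY1-OVA and -0.21 to 0.34 in OVA, all of which leave out a doubling. Those of Slc2a3 (GLUT3) were -0.23 to 0.28, -0.15 to 0.42, -0.30 to 0.22 and -0.50 to 0.01 in the same order. Of the 7 members of the families grouped as sugar carriers, those called were Slc50a1 (-0.39 ± 0.12) and the urate and hexose carrier Slc2a9 (-0.59), both lower in OVA.

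Monocarboxylate carriers split. Slc16a5 (MCT6; chr11:115462474-115474398, plus strand) was at 1.03, 0.785 and 1.19 RPKM in TER119-SIINFEKL, 0.269 and 5.24 in SIINFEKL, 1.92, 3.06 and 2.45 in ERY1-OVA, 4.97, 4.59 and 4.15 in OVA and 11.6, 12.8 and 12.1 in Naive libraries. All antigen libraries were below all Naive libraries, and the 2 SIINFEKL libraries held the lowest and the highest of the 11. The log2 fold change was -3.62 ± 0.70 in TER119-SIINFEKL (adjusted p = 0.00089), -3.36 ± 0.78 in SIINFEKL (0.012), -2.32 ± 0.70 in ERY1-OVA (0.018) and -1.42 ± 0.70 in OVA, which was not called (0.11). The SE is shared by all groups and includes the gap between the SIINFEKL libraries; with that group left out of the fit, an alternative added after the values were seen, the OVA change was -1.42 ± 0.19 (adjusted p = 5.8e-05). In SIINFEKL itself the change was -1.22 without replicate 1 and -5.50 without replicate 2. The ERY1-OVA call was lost without ERY1-OVA replicate 1 (-2.15, adjusted p = 0.05).

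Slc16a10 (TAT1), which carries aromatic amino acids and thyroid hormones, was at 1.47, 1.30 and 1.36 RPKM in TER119-SIINFEKL, 0.971 and 0.823 in SIINFEKL, 1.77, 1.26 and 1.10 in ERY1-OVA, 2.08, 2.51 and 2.36 in OVA and 4.23, 4.66 and 3.74 in Naive libraries. The antigen libraries lay below Naive without overlap, OVA nearest to it and SIINFEKL farthest. It fell by 1.61 ± 0.20, 2.23 ± 0.22, 1.64 ± 0.20 and 0.86 ± 0.20 on the log2 scale in those 4 groups. Slc16a6, a ketone body exporter in zebrafish, fell in TER119-SIINFEKL (-1.05 ± 0.19), SIINFEKL (-0.95 ± 0.22) and ERY1-OVA (-0.85 ± 0.19) but not in OVA (-0.18 ± 0.19); 21.5% of its exon length overlaps Amz2 on the opposite strand. The lactate carrier Slc16a1 (MCT1) rose slightly in TER119-SIINFEKL (0.38 ± 0.12) and OVA (0.35 ± 0.12) and was not called in SIINFEKL (-0.29 ± 0.13) or ERY1-OVA (0.05 ± 0.12).

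**Figure D3:**
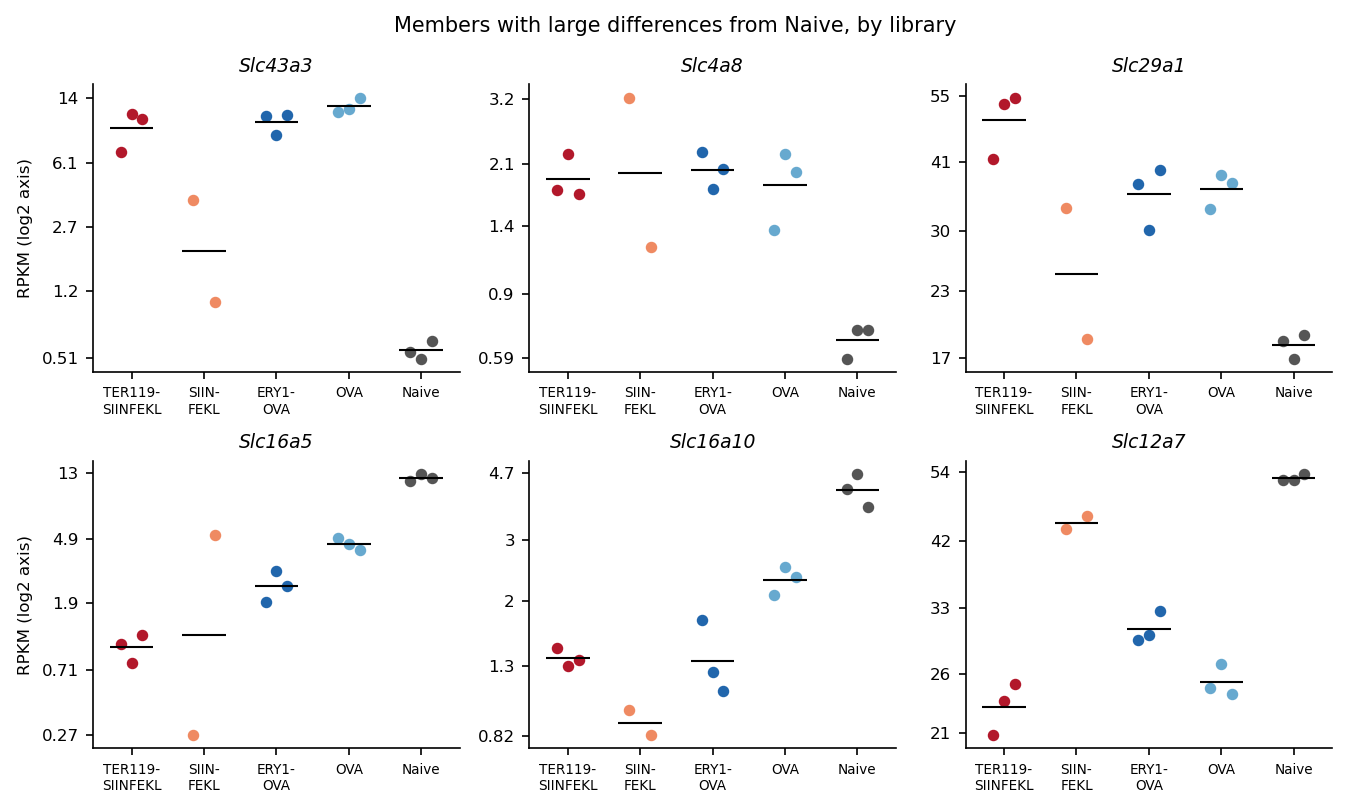
RPKM (log2 axis) of 6 members in each of the 14 libraries (points), with the geometric mean of the group (line). Slc43a3 and Slc4a8 are above Naive in all antigen libraries, Slc16a5, Slc16a10 and Slc12a7 below it, and in Slc29a1 the second SIINFEKL library lies within the Naive range.

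Mitochondrial carriers of the Slc25 family made up the largest part of the summed RPKM of the members, and their share in TER119-SIINFEKL, ERY1-OVA and OVA libraries lay above that in all Naive libraries. They held 49.2% to 55.6% of the summed RPKM of all members in TER119-SIINFEKL libraries, 37.9% to 38.8% in SIINFEKL, 47.5% to 52.4% in ERY1-OVA, 50% to 57.4% in OVA and 38.9% to 40.8% in Naive. The largest single part was Slc25a5, which exchanges ADP and ATP across the inner membrane and alone held 22.9% to 28.3%, 12.3% to 13.3%, 21.5% to 26.2%, 22.6% to 30% and 12.4% to 14.6% of the members' sum in the same order. The part of Slc25a5 lay above Naive in the same 3 groups as the family's share. The family's share without Slc25a5 was not computed, so no gain of the family as a whole is shown. By number of genes, of 36 tested, 8 rose and 7 fell in TER119-SIINFEKL, 4 and 4 in SIINFEKL, 4 and 8 in ERY1-OVA, and 7 and 9 in OVA. Beside these counts stood 24.6% and 23%, 7.58% and 8.34%, 20.9% and 19%, and 24.4% and 23.1% of all genes.

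Slc25a5 was at 861, 688 and 743 RPKM in TER119-SIINFEKL, 367 and 326 in SIINFEKL, 604, 788 and 720 in ERY1-OVA, 961, 675 and 721 in OVA and 399, 328 and 371 in Naive libraries. The 9 libraries of TER119-SIINFEKL, ERY1-OVA and OVA were all above Naive and SIINFEKL overlapped it, with log2 fold changes of 1.06 ± 0.16, 0.94 ± 0.16 and 1.09 ± 0.16 in the 3 groups and -0.08 ± 0.17 in SIINFEKL. GENCODE lists a processed pseudogene of Slc25a5, and how reads shared with it were counted is not stated. The second adenine nucleotide carrier, Slc25a4, rose by 0.53 ± 0.11, 0.49 ± 0.11 and 0.67 ± 0.11 in the same 3 groups. The phosphate carrier Slc25a3 rose in TER119-SIINFEKL (0.32 ± 0.10) and OVA (0.42 ± 0.10).

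Close relatives within the family moved differently. Slc25a13 (chr6:6041218-6217173, minus strand) and Slc25a12 are the 2 aspartate and glutamate carriers. Slc25a13 was at 7.65, 6.86 and 6.33 RPKM in TER119-SIINFEKL, 2.78 and 2.27 in SIINFEKL, 5.34, 5.56 and 5.25 in ERY1-OVA, 7.18, 5.78 and 7.06 in OVA and 1.62, 1.74 and 0.893 in Naive libraries. All antigen libraries exceeded Naive, with SIINFEKL between. It rose by 2.35 ± 0.21 in TER119-SIINFEKL, 0.89 ± 0.24 in SIINFEKL, 1.99 ± 0.21 in ERY1-OVA and 2.29 ± 0.21 in OVA. Slc25a12 ranged from 13.9 to 19.5 RPKM over all libraries and was called in none, with log2 fold changes of -0.15, -0.18, -0.14 and -0.01 (SE of 0.11 or 0.12).

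Slc25a24, Slc25a23 and Slc25a25 are calcium-regulated carriers of ATP-Mg and phosphate. Slc25a24 was at 6.21, 7.96 and 7.21 RPKM in TER119-SIINFEKL, 10.1 and 6.74 in SIINFEKL, 7.72, 7.14 and 6.93 in ERY1-OVA, 4.95, 7.53 and 7.14 in OVA and 2.83, 4.07 and 3.87 in Naive libraries. Slc25a23 (chr17:57043711-57059863, minus strand) was at 3.17, 2.12 and 2.59 RPKM in TER119-SIINFEKL, 2.42 and 4.09 in SIINFEKL, 3.27, 3.85 and 3.18 in ERY1-OVA, 3.52, 5.01 and 3.61 in OVA and 8.98, 9.10 and 7.66 in Naive libraries. Neither gene's antigen libraries overlapped Naive, and the 2 moved in opposite directions. Slc25a24 rose by 1.00 ± 0.20, 1.22 ± 0.22, 1.03 ± 0.20 and 0.86 ± 0.20, and Slc25a23 fell by 1.72 ± 0.21, 1.44 ± 0.24, 1.32 ± 0.21 and 1.10 ± 0.21 on the log2 scale in TER119-SIINFEKL, SIINFEKL, ERY1-OVA and OVA; the SIINFEKL call of Slc25a24 was lost without SIINFEKL replicate 1 (0.93, adjusted p = 0.067). Slc25a25 was not called in any group (-0.46 to -0.25).

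**Figure D4:**
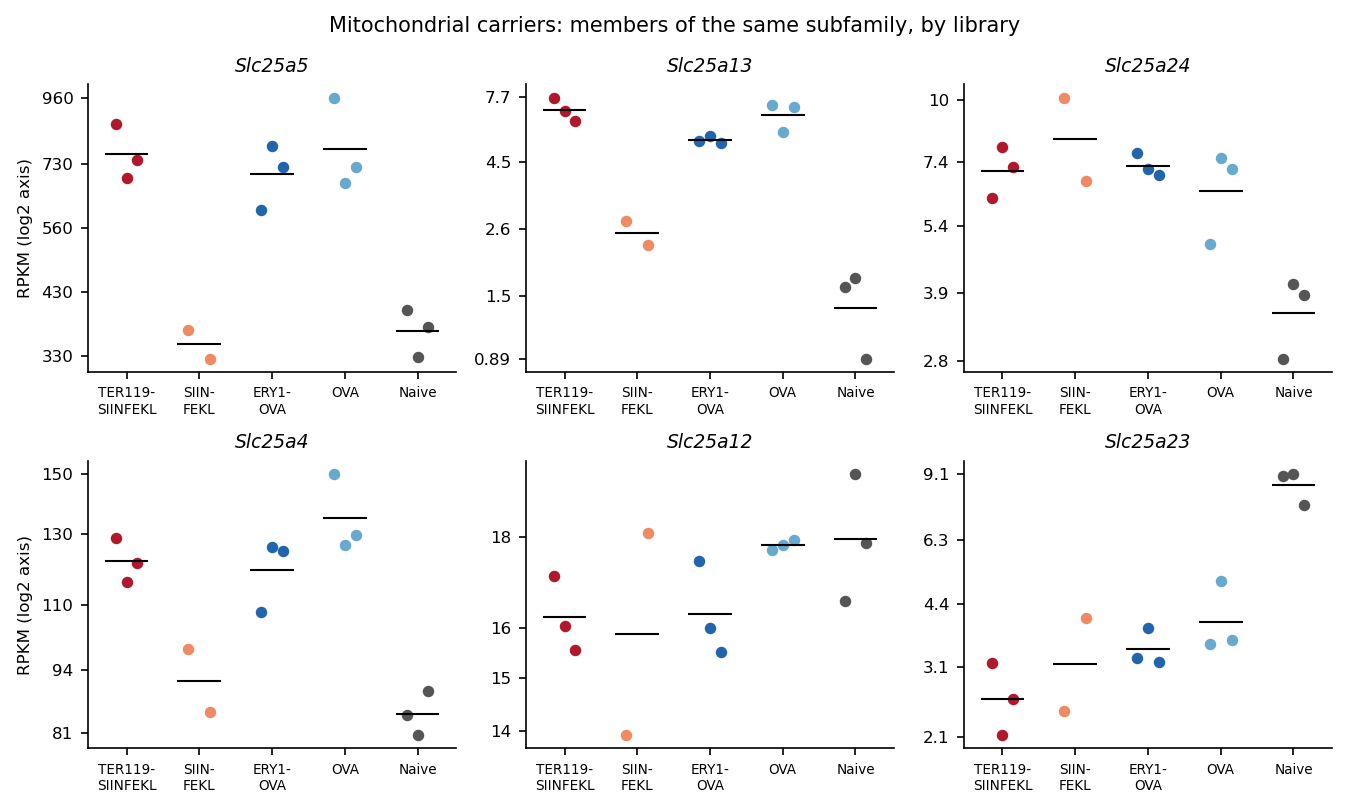
RPKM (log2 axis) of 3 pairs of related mitochondrial carriers by library (points), with the geometric mean of the group (line). Slc25a13 is above Naive in every antigen library while Slc25a12 is not separated, and Slc25a24 is above Naive where Slc25a23 is below it.

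Other members of the family that fell were Slc25a36, a pyrimidine nucleotide carrier (-0.73 ± 0.11 in TER119-SIINFEKL, 0.03 ± 0.13 in SIINFEKL where it was not called, -0.64 ± 0.11 in ERY1-OVA and -0.85 ± 0.11 in OVA), and the NAD+ carrier Slc25a51 (-0.47 to -0.36 in the 4 groups). The glutathione carrier Slc25a39 rose in TER119-SIINFEKL (0.54 ± 0.12) and OVA (0.52 ± 0.12). The dicarboxylate carrier Slc25a10 rose in TER119-SIINFEKL (0.43 ± 0.15) and OVA (0.81 ± 0.15) and fell in SIINFEKL (-1.12 ± 0.17).

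Of nucleoside carriers, Slc29a1 (ENT1), which equilibrates nucleosides across the plasma membrane, was at 41.5, 53.0 and 54.6 RPKM in TER119-SIINFEKL, 33.3 and 18.5 in SIINFEKL, 37.1, 30.2 and 39.6 in ERY1-OVA, 33.2, 38.6 and 37.2 in OVA and 18.4, 17 and 18.9 in Naive libraries. It rose by 1.45 ± 0.18 in TER119-SIINFEKL, 0.97 ± 0.18 in ERY1-OVA and 1.00 ± 0.18 in OVA; in SIINFEKL, where one library overlapped Naive, the difference of 0.46 ± 0.20 was not called. Slc28a2 (CNT2), a sodium-coupled purine nucleoside carrier, had its largest rise in SIINFEKL instead, with 37, 29.9 and 32.6 RPKM in TER119-SIINFEKL, 74.9 and 51.5 in SIINFEKL, 35.5, 40 and 52 in ERY1-OVA, 25.2, 24.6 and 26.4 in OVA and 35.3, 30.1 and 26.9 in Naive libraries. It was called in SIINFEKL (1.02 ± 0.18; 0.75 and adjusted p = 0.061 without SIINFEKL replicate 1) and in ERY1-OVA (0.45 ± 0.16).

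As among the other carriers in TER119-SIINFEKL, ERY1-OVA and OVA, more metal carriers fell than rose. Of 22 tested, 4 rose and 10 fell in TER119-SIINFEKL, 0 and 4 in SIINFEKL, 3 and 11 in ERY1-OVA, and 2 and 8 in OVA. Called lower were 45.5%, 18.2%, 50% and 36.4% of metal carriers in the same order, beside 23%, 8.34%, 19% and 23.1% of all genes. Called higher were 18.2%, 0%, 13.6% and 9.09% of metal carriers, beside 24.6%, 7.58%, 20.9% and 24.4% of all genes. Of the other 135 members, 18 rose and 36 fell in TER119-SIINFEKL, 12 and 11 in SIINFEKL, 10 and 26 in ERY1-OVA, and 17 and 43 in OVA. The metal carriers' median log2 fold changes were -0.26, -0.07, -0.23 and -0.15 in that order, beside -0.13, 0.03, -0.11 and -0.19 for the other members. Those that fell in all 4 groups were Slc39a14 (ZIP14, zinc and iron uptake; -0.86 to -0.48), Slc30a4 (ZnT4, zinc into vesicles; -0.82 to -0.58) and Slc39a11 (ZIP11; -1.18 to -0.58). The plasma membrane zinc exporter Slc30a1 fell in TER119-SIINFEKL (-1.11 ± 0.17), ERY1-OVA (-0.96 ± 0.17) and OVA (-0.96 ± 0.17). The zinc importer Slc39a4 (ZIP4) rose in the same 3 groups, by 0.92, 0.69 and 0.85 (SE 0.26).

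The 2 copper carriers, whose genes lie close together on chromosome 4 (Slc31a2 at 62262562 to 62298411 and Slc31a1 at 62360727 to 62391769), moved in opposite directions. Slc31a1 (CTR1), the main copper importer, was at 5.87, 5.48 and 6.10 RPKM in TER119-SIINFEKL, 2.69 and 2.98 in SIINFEKL, 4.99, 5.03 and 4.34 in ERY1-OVA, 5.58, 5.14 and 6.26 in OVA and 3.22, 3.68 and 3.20 in Naive libraries. It rose by 0.79 ± 0.13, 0.51 ± 0.13 and 0.75 ± 0.13 in TER119-SIINFEKL, ERY1-OVA and OVA, whereas Slc31a2 (CTR2) fell by 1.28 ± 0.23, 0.92 ± 0.23 and 0.79 ± 0.23 there.

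Among carriers of ions, Slc12a7 (KCC4, potassium and chloride cotransport) fell in 3 groups with a small spread between libraries. It was at 20.9, 23.6 and 25.1 RPKM in TER119-SIINFEKL, 43.9 and 46 in SIINFEKL, 29.4, 29.9 and 32.7 in ERY1-OVA, 24.8, 27 and 24.2 in OVA and 52.5, 52.5 and 53.6 in Naive libraries. No antigen library reached Naive, and the changes were -1.19 ± 0.09, -0.23 ± 0.11 (not called), -0.79 ± 0.09 and -1.06 ± 0.09. Slc4a8, a sodium-driven chloride and bicarbonate exchanger, rose by 1.51 ± 0.31, 1.57 ± 0.34, 1.59 ± 0.31 and 1.45 ± 0.31 in the 4 groups, while its level in Naive libraries was low, at 0.589 to 0.711 RPKM. With 1 RPKM added before the logarithm those changes were 0.80, 0.88, 0.85 and 0.77, and the SIINFEKL call was lost without SIINFEKL replicate 1 (0.87, adjusted p = 0.16). The same addition shrank other changes in SIINFEKL, to 1.00 for Slc43a3, -2.23 for Slc16a5 and -1.46 for Slc16a10, and that of Slc43a1 in TER119-SIINFEKL to 0.59. Of the 20 ion and phosphate members, 1 rose and 5 fell in TER119-SIINFEKL, 5 and 0 in SIINFEKL, 1 and 1 in ERY1-OVA, and 1 and 6 in OVA. In the same order, 24.6% and 23%, 7.58% and 8.34%, 20.9% and 19%, and 24.4% and 23.1% of all genes did so. The ion members that rose in SIINFEKL included Slc4a8, Slc12a9 (0.91 ± 0.25, lost without SIINFEKL replicate 1 or Naive replicate 2 or 3), the mitochondrial sodium and calcium exchanger Slc8b1 and the bicarbonate carrier Slc4a7.

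Of 10 tested members grouped by family as lysosomal and vesicle carriers, 5 fell in TER119-SIINFEKL, 0 in SIINFEKL, 4 in ERY1-OVA and 6 in OVA. In the fit to all libraries 0 were called higher. All-gene shares that fell were 23%, 8.34%, 19% and 23.1% in the same order, and 24.6%, 7.58%, 20.9% and 24.4% rose. The lysosomal and vesicle group holds 3 tested members of the Slc37 family, and does not hold the lysosomal carrier Slc36a1. With the SIINFEKL group left out of the fit, Slc33a1, the acetyl-CoA carrier of the endoplasmic reticulum, was called higher in TER119-SIINFEKL (0.41 ± 0.14, adjusted p = 0.026) and ERY1-OVA (0.37 ± 0.14, adjusted p = 0.045). Slc17a5 (sialin, sialic acid export from lysosomes) fell by 1.27 ± 0.15, 0.84 ± 0.15 and 1.02 ± 0.15 on the log2 scale in TER119-SIINFEKL, ERY1-OVA and OVA, and Slc17a9, the vesicular nucleotide carrier, by 1.13 ± 0.20, 0.68 ± 0.20 and 0.95 ± 0.20. The group's summed RPKM was 64.9 to 70.9 in TER119-SIINFEKL, 92.0 to 110.6 in SIINFEKL, 72.7 to 84.5 in ERY1-OVA, 70.1 to 77.1 in OVA and 96.3 to 99.3 in Naive libraries.

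Of the 19 members of the Slc35 family, which carry nucleotide sugars and related substrates into the Golgi and endoplasmic reticulum, 4 rose and 5 fell in TER119-SIINFEKL, 0 and 0 in SIINFEKL, 2 and 4 in ERY1-OVA, and 3 and 5 in OVA. The shares over all genes were 24.6% and 23%, 7.58% and 8.34%, 20.9% and 19%, and 24.4% and 23.1%. Slc35b2, which brings the sulfate donor PAPS into the Golgi, rose by 0.69, 0.68 and 0.67 (SE 0.17), and Slc35a3, a UDP-N-acetylglucosamine carrier, by 0.45, 0.56 and 0.43 (SE 0.12), in TER119-SIINFEKL, ERY1-OVA and OVA. Slc35e3, whose cargo is not established, fell by 1.04, 1.09 and 1.01 (SE 0.18) in the same groups. Among the 6 carriers of fatty acids, bile acids, dicarboxylates and urea, the fatty acid transport protein Slc27a4 fell in all 4 groups (-1.16 to -0.86). Its relative Slc27a6 fell in OVA (-1.19 ± 0.41; -0.61 with 1 RPKM added), a call lost without OVA replicate 1 or 3 or Naive replicate 1 or 2. Of 8 vitamin and choline carriers the choline transporter Slc44a1 fell in SIINFEKL (-0.57), ERY1-OVA (-0.47) and OVA (-0.48). The organic cation and carnitine carriers Slc22a5 (-0.50) and Slc22a21 (-0.66) both fell in TER119-SIINFEKL and were not called elsewhere.

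Carrier partners and genes that act beside them, a list of 37 of which 35 were tested, split in both directions: 15 rose and 7 fell in TER119-SIINFEKL, 2 and 7 in SIINFEKL, 13 and 10 in ERY1-OVA, and 13 and 9 in OVA. The background over all genes was 24.6% and 23%, 7.58% and 8.34%, 20.9% and 19%, and 24.4% and 23.1% in the same order. The mitochondrial outer membrane channel Vdac1 rose by 0.85 ± 0.10, 0.74 ± 0.10 and 1.06 ± 0.10, the serine carrier Sfxn1 by 0.75 ± 0.09, 0.53 ± 0.09 and 0.97 ± 0.09, and lactate dehydrogenase A (Ldha) by 0.87 to 1.31 (SE 0.12) in TER119-SIINFEKL, ERY1-OVA and OVA. Txnip, which removes glucose carriers from the cell surface, fell in all 4 groups, by 1.70 ± 0.16, 0.63 ± 0.18, 1.26 ± 0.16 and 1.25 ± 0.16 on the log2 scale, while the transcripts of both glucose carriers above were not called. Of the 2 partner chains of monocarboxylate carriers, Emb fell in TER119-SIINFEKL (-0.60), ERY1-OVA (-0.46) and OVA (-0.60), and Bsg rose in TER119-SIINFEKL (0.45) and OVA (0.50). The sodium pump chains Atp1b1 and Atp1b3 fell in all 4 groups.

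Erythrocyte-bound and soluble antigen were then set against each other. For the peptide, 20 members rose and 36 fell in TER119-SIINFEKL relative to SIINFEKL, 35.7% of 157, beside 37.4% of all genes (20.4% higher and 17% lower). The count was lower without SIINFEKL replicate 1, a fit that leaves 1 SIINFEKL library. The 5 largest rises were in Slc43a3 (2.25 ± 0.38; 1.32 without SIINFEKL replicate 2), Slc7a5 (1.59 ± 0.22, adjusted p = 0.00015), Slc25a10 (1.55 ± 0.17, adjusted p = 2.8e-05), Slc25a13 (1.46 ± 0.24) and the fatty acid carrier Slc27a6 (1.28 ± 0.46). The Slc27a6 call was lost in several alternatives and its change was 0.37 without SIINFEKL replicate 2. The 5 largest falls were in Slc26a11, an anion carrier (-1.64 ± 0.28), Slc36a1 (-1.49 ± 0.21), Slc6a19 (-1.36 ± 0.40), Slc17a9 (-1.30 ± 0.22) and Slc38a6 (-1.17 ± 0.31). Those of Slc6a19 and Slc38a6 lost their call when 1 SIINFEKL library was left out (-0.79 without replicate 2 and -0.75 without replicate 1).

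Slc25a10 was at 5.29, 6.64 and 7.24 RPKM in TER119-SIINFEKL libraries, against 1.90 and 2.46 in SIINFEKL. Slc26a11 was at 3.25, 2.59 and 3.75 RPKM in TER119-SIINFEKL, against 10.3 and 9.38 in SIINFEKL. The groups did not overlap in either gene. Slc36a1, which exports small amino acids from lysosomes, was at 3.10, 4.39 and 4.11 RPKM in TER119-SIINFEKL, against 12.7 and 9.16 in SIINFEKL and 7.38 to 7.80 in Naive libraries. By family group, 8 mitochondrial carriers rose and 4 fell in TER119-SIINFEKL relative to SIINFEKL. In the amino acid families 3 members rose, among them Slc43a3, and 6 fell. In the lysosomal and vesicle families 0 rose and 6 fell, 3 of them of the Slc37 family. Over all genes 20.4% were higher and 17% lower.

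**Figure D5:**
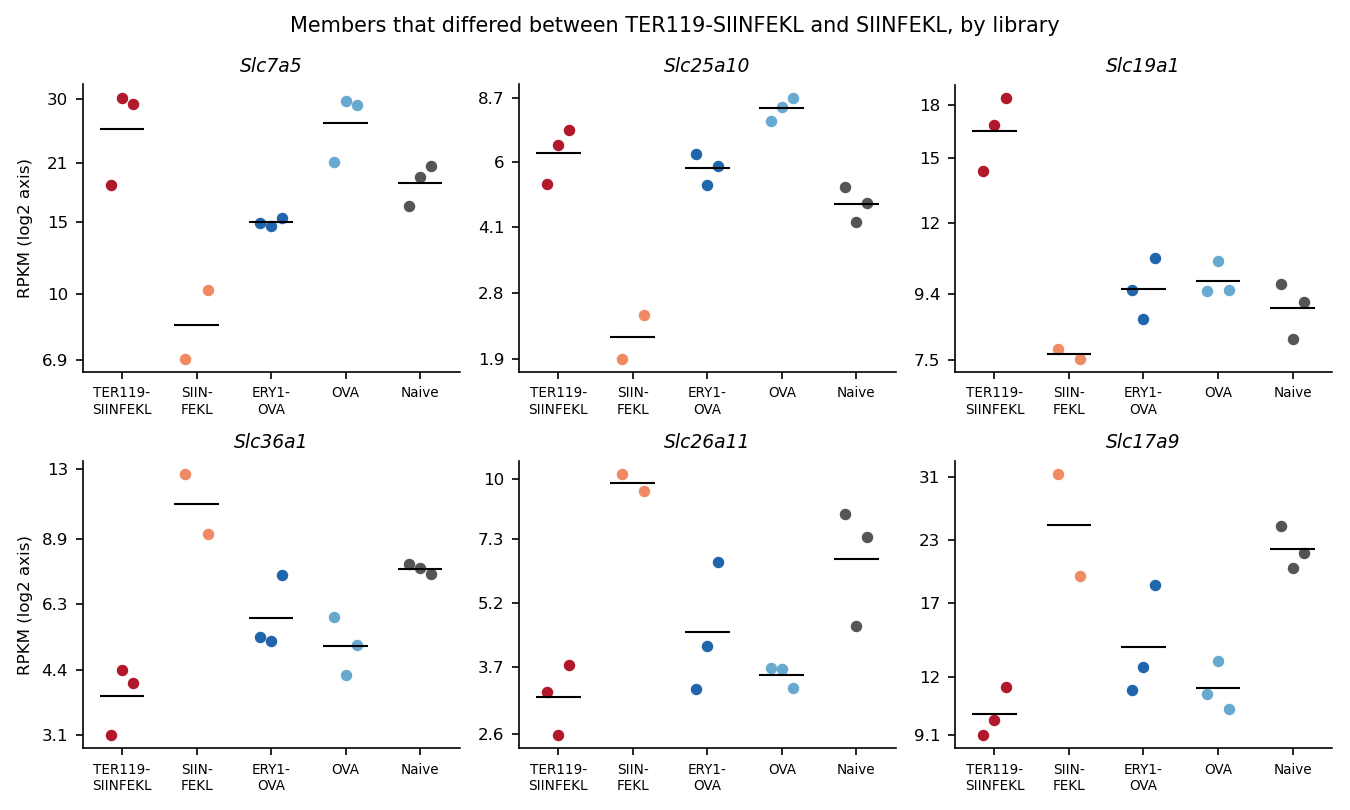
RPKM (log2 axis) of 6 members by library (points), with the geometric mean of the group (line). Slc7a5, Slc25a10 and Slc19a1 are higher in TER119-SIINFEKL than in SIINFEKL, and Slc36a1, Slc26a11 and Slc17a9 lower, with no overlap between those 2 groups.

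For the protein, 30 members had an unadjusted p under 0.05 between ERY1-OVA and OVA. The share of all genes at that level was not computed. After adjustment 1 member was called (0.637%, beside 1.06% of all genes). The count of called members was 0 without any 1 of the 6 ERY1-OVA and OVA libraries, and also without TER119-SIINFEKL replicate 3. With the SIINFEKL group left out of the fit, 9 members were called between ERY1-OVA and OVA (5.73%, beside 3.67% of all genes in that fit), among them Slc7a5 (-0.81), Slc16a5 (-0.90), Slc16a10 (-0.78) and Slc28a2 (0.72). Tested directly, the effect of binding antigen to erythrocytes differed between peptide and protein for 64 of 157 members (40.8%, beside 37.7% of all genes).

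Between the erythrocyte-bound antigens, TER119-SIINFEKL and ERY1-OVA, 26 members had an unadjusted p under 0.05. Here too the share of all genes at that level was not computed. After adjustment 1 member was called (0.637%, beside 0.562% of all genes). It was Slc19a1, the reduced folate carrier, at 14.4, 16.8 and 18.5 RPKM in TER119-SIINFEKL libraries, against 9.54, 8.65 and 10.6 in ERY1-OVA; the other groups held 7.78 and 7.53 in SIINFEKL, 9.51, 10.5 and 9.55 in OVA and 9.74, 8.06 and 9.16 in Naive. All 3 TER119-SIINFEKL libraries were above every other library. The difference from ERY1-OVA was 0.78 ± 0.12 (adjusted p = 0.015) and was no longer called without ERY1-OVA replicate 1 or 2 or TER119-SIINFEKL replicate 2 or 3. In the partner list Hk2, which traps glucose as its phosphate, was higher in TER119-SIINFEKL than in ERY1-OVA (1.22 ± 0.25, adjusted p = 0.049).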

How the data were processed

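The series holds 14 strand-specific poly(A) RNA libraries. The authors deposited one table of log2 RPKM values for 10106 genes, and each of its columns was matched to a library by name. Tools listed in the submitters' processing notes are STAR 2.4.2, bcl2fastq 2.17.1.14 and edgeR, with the builds mm10 and GRCm38; the counter, gene lengths, prior count, strand setting and normalization between libraries are not given in the sources used here. The log base was taken as 2 from the values, since RPKM times exon length in kilobases then summed to 1764368 to 2042896 per library. Read counts were not used; sequencing depth is therefore unknown, and counting error could not be computed.

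Values were used as deposited. Genes with a mean of at least 1 RPKM (9793) entered limma 3.58.1 in R 4.3.3, with a mean for each of the 5 groups and empirical Bayes variances that follow expression level (residual degrees of freedom 9, prior 4.6); p-values were two-sided and adjusted by Benjamini-Hochberg over all tested genes of a comparison. The planned test on RPKM with a pseudocount was replaced because the values were already logarithms. The fit was tested on simulated data. Nothing says that libraries of a group came from separate mice, so p-values measure the spread between these samples, which may be technical. Positions and exon overlaps are from GENCODE M21 (GRCm38), with all 160 members matched by gene identifier, and promoters from RefSeq (GRCm38.p6). Without a stated strand setting, overlapping genes cannot be told apart: 42 members overlap exons of a gene on the opposite strand and 9 on the same strand. Intervals of log2 fold changes are at 95%.

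Members named with values are the up to 5 largest rises and 5 largest falls per comparison among called genes whose libraries did not overlap, a list of carriers known from T cell metabolism, and the 5 highest and 5 lowest levels; the few others were chosen after their values were seen. A called member and a partner gene are not reported here. Members and lists were chosen with earlier results of these data known.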

Additional observations from a re-analysis of the deposited data

Results flagged for a closer look

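The effect of binding antigen to erythrocytes differed between peptide and protein for 64 of 157 solute carrier genes (40.8%, beside 37.7% of all genes), by a test of the difference itself: the TER119-SIINFEKL minus SIINFEKL change less the ERY1-OVA minus OVA change in one limma fit, a contrast added to the 7 planned ones. It was positive for 24 and negative for 40. Without SIINFEKL replicate 1 the share of members was lower and lay below that of all genes. Without SIINFEKL replicate 2 it was slightly lower and stayed above that of all genes. Each of these fits leaves 1 SIINFEKL library, so the members' side of the background depends on which library is left out.

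Of the 5 largest rises and 5 largest falls between TER119-SIINFEKL and SIINFEKL, which were chosen on one side of this difference, that of Slc27a6 did not meet the test. The difference was positive for Slc43a3 (2.54; 1.61 without SIINFEKL replicate 2), Slc7a5 (2.41), Slc25a10 (2.06) and Slc25a13 (1.77) on the log2 scale. It was negative for Slc26a11 (-1.96), Slc36a1 (-1.71), Slc38a6 (-1.60), Slc17a9 (-1.57) and Slc6a19 (-1.49). That of Slc6a19 was -0.93 and no longer called without SIINFEKL replicate 2 (adjusted p = 0.21, limma), and that of Slc38a6 was -1.18 without SIINFEKL replicate 1 (adjusted p = 0.052, limma). Other members described above also met the test, among them Slc28a2 (-1.63), Slc12a7 (-1.23), Slc16a10 (1.40), Slc25a5 (1.29), Slc31a1 (1.28) and Slc19a1 (1.15). In Slc7a5, for example, TER119-SIINFEKL exceeded SIINFEKL by 1.59 ± 0.22, and ERY1-OVA minus OVA was -0.81 ± 0.20.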

How the results depend on the processing

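Over the 157 tested members, in all comparisons and settings that gave a value, 24031 of 24774 values kept their side of the threshold and, where called, their direction; 475 lost and 264 gained a call. A further 4 took the opposite sign and a call, each from a value that was not called in the fit to all libraries, and 3 of them are of members named by rule. Slc16a5 in TER119-SIINFEKL against SIINFEKL was -0.26, and was -2.41 without SIINFEKL replicate 1 and 1.88 without SIINFEKL replicate 2; Slc38a1 became 0.36 from -0.04 in OVA against Naive, and 0.36 from -0.03 in TER119-SIINFEKL against SIINFEKL, with the gene length trend removed. In each comparison most members were not called in the fit to all libraries, and such values make up most of those kept. The most calls lost in a single setting were 53, without Naive replicate 2. Leaving out 1 library gave 52 to 72 called members in TER119-SIINFEKL against Naive, 5 to 52 in SIINFEKL, 41 to 53 in ERY1-OVA, 50 to 74 in OVA, 37 to 60 in TER119-SIINFEKL against SIINFEKL, 0 to 9 in ERY1-OVA against OVA and 0 to 2 in TER119-SIINFEKL against ERY1-OVA. The ERY1-OVA against OVA count of 1 was 2 with 1 RPKM added, 3 with a minimum mean of 3 RPKM, 4 with the length trend removed and 9 with the SIINFEKL group left out. The TER119-SIINFEKL against ERY1-OVA count of 1 was 2 with the first OVA and TER119-SIINFEKL libraries left out together and 2 with the SIINFEKL group left out. The causes were not tested, and these counts stand without the shares of all genes called in the same settings. With a replicate block the counts were 72, 26, 55 and 70 in TER119-SIINFEKL, SIINFEKL, ERY1-OVA and OVA against Naive, 57 in TER119-SIINFEKL against SIINFEKL, 2 in ERY1-OVA against OVA and 2 in TER119-SIINFEKL against ERY1-OVA. Deviations of 26 same-numbered pairs correlated at -0.44 to 0.67, with a median of 0.13 and 14 over 0.1. Those of 52 different-numbered pairs correlated at -0.54 to 0.57, with a median of -0.08 and 15 over 0.1. The labels do not say what a number marks, so the fit to all libraries did not pair the samples. Whether numbers mark a shared animal or day was not tested. Low members have unknown counting error, and fold changes of Slc4a8 and Slc16a5 depend on the prior count.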

Other observations

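The 3 members under the expression minimum were not part of the counts. Slc16a3 (MCT4, a lactate exporter) was at 1.15, 1.57 and 1.11 RPKM in TER119-SIINFEKL, 0.805 and 0.383 in SIINFEKL, 0.887, 1.06 and 0.726 in ERY1-OVA, 1.24, 1.27 and 1.18 in OVA and 0.325, 0.538 and 0.410 in Naive libraries. Its libraries in TER119-SIINFEKL, ERY1-OVA and OVA lay above all Naive libraries. In a fit with no minimum its log2 fold change over Naive was 1.60 ± 0.29, 1.08 ± 0.29 and 1.57 ± 0.29 in those 3 groups, each called, and 0.42 ± 0.33 in SIINFEKL, not called (limma). Slc29a2 (ENT2, a nucleoside carrier) was called in that fit between TER119-SIINFEKL and SIINFEKL (1.5 ± 0.36), with 1.19, 1.52 and 1.45 RPKM in TER119-SIINFEKL, against 0.385 and 0.615 in SIINFEKL. The glucose phosphate carrier Slc37a2 was called in none of the 7 comparisons.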
